A study of Mus musculus with 32 samples.

Results

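The genes described here are a fixed list of 41 genes of DNA replication, the cell cycle engine and mitosis, picked by symbol from a table of 39676 genes. A row was found for 39 of them, and Mcm4 and Cdk2 are not analysed here. The rule used gene names alone, but the members were chosen with earlier results of these data known. The list holds 8 measured genes of replication licensing and the helicase, 4 of the replication fork and nucleotide supply, 7 G1 and G1/S cyclins and kinases, 4 genes for the cyclins and kinase of S, G2 and M phase, 5 mitotic and checkpoint kinases, 6 genes of chromosome segregation and chromatin, 3 transcription factors and 2 CDK inhibitors. All 39 passed the filter on low counts in every comparison.

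The values come from whole tumors of 32 untreated female mice aged 8 to 10 weeks, with 8 mice in each of 4 groups, harvested on day 10. AB1 cells (500000 per mouse) were grown in BALB/c mice and AE17 cells (1000000 per mouse) in C57BL/6 mice, and both lines are murine mesothelioma lines. Each line was placed either in the pleural space, giving intrapleural (IPL) tumors, or under the skin, giving subcutaneous (SC) tumors. Total counts were between 15432258 and 20649645 per mouse, and levels are given as CPM (counts in every 1000000 of a library, scaled by TMM factors), so that 3 counts correspond to 0.139 to 0.19 CPM. The model compares a line together with its host strain and cell number, so these cannot be told apart. It also moves with the sequencing lane, since all 8 AB1 IPL libraries ran in lane 3 and all 8 AE17 SC libraries in lane 1, while AB1 SC tumors were split over lanes 3 (2 mice) and 2 (6 mice) and AE17 IPL tumors over lanes 2 (5 mice) and 1 (3 mice). In whole tumors, fewer dividing cells and less RNA per dividing cell cannot be told apart.

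A cell may copy each stretch of DNA only once per cycle. In G1 phase the licensing factors Cdc6 and Cdt1 load the ring-shaped MCM helicase onto origins, and in S phase CDK and GINS activate it. D cyclins with Cdk4 or Cdk6 inactivate the RB protein and release E2F factors, which switch on genes of S phase, while Foxm1 and MYB-bearing complexes switch on genes of mitosis. Cdkn1a (p21) and Cdkn1b (p27) restrain the cyclin kinases, and p53 is the best known activator of Cdkn1a.

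The levels of the members were well above the detection limit, from 5.42 CPM (Ccne2 in 1 AB1 IPL tumor) to 1001 CPM (Ccnd1 in 1 AB1 SC tumor). The mesothelial label was only in part seen in the RNA. Of 10 mesothelial markers 6 had a row, and Pdpn had a group median of 84.9 to 170.0 CPM. The other 5 (Wt1, Upk3b, Krt19, Calb2 and Lrrn4) had medians under 1 CPM in both AB1 groups, while 4 of the 6 were under 1 CPM in AE17 SC tumors and 1 of the 6 (Calb2) in AE17 IPL tumors.

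In 5 libraries, long transcripts of low GC content gave few reads. Among genes averaging 5 CPM or more, 536 had transcripts over 5000 bases with under 43% GC, and 2776 had transcripts under 3000 bases with over 50% GC. The median log2 deviation of the first class from its group median, less that of the second, was -1.79 in AB1 IPL replicate 4, -0.60 in AB1 IPL replicate 2, -0.33 in AB1 IPL replicate 6, -0.39 in AE17 IPL replicate 6 and -0.29 in AE17 SC replicate 3. In the other 27 libraries it lay between -0.14 and 0.25. AB1 IPL replicate 4 also had the highest summed level of 7 erythroid markers (3457 CPM, against a group median of 502), and AB1 IPL replicate 2 the highest of 6 mesothelial (279.6 CPM) and 4 plasma cell markers (3712 CPM). Mki67, Cenpe, Top2a, Bub1 and Ccne2 were the lowest members in most of these libraries, but not in AB1 IPL replicate 6, and their model comparisons are given below with and without the 5 libraries.

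The first question is how the 2 models differ at each site. In AB1 tumors 7 of 8 licensing genes and 3 of 4 fork genes were higher than in AE17 tumors at both sites, and the G1/S cyclins split. Without the 5 libraries named above these were 6 of 8 and 2 of 4 in IPL tumors, where the calls of Mcm3 and Tyms were lost and those of Cdk6, Top2a and Bub1 gained. With the sequencing lane as a covariate no Mcm gene was called at either site. Of the 5 mitotic and checkpoint kinases 2 were higher in IPL and 3 in SC tumors, and of the 6 segregation genes 3 and 4, of which Aurkb and Ube2c alone were also called with the sequencing lane as a covariate. Of the 39 members, 22 were higher and 6 lower in AB1 IPL than in AE17 IPL tumors (edgeR, adjusted p under 0.05), where 30.5% of all 14886 genes tested were higher and 28.6% lower. In SC tumors 23 were higher and 8 lower, against 31.5% and 32.2% of 14718 genes. The members' share of higher calls was thus 56.4% at the IPL site and 59.0% at the SC site. Their median log2 fold change was 0.37 in IPL and 0.35 in SC tumors, against 0.02 and 0.00 for all genes tested. The same 20 members (51.3%) were higher at both sites and the same 6 (15.4%) lower, where 22.1% and 21.7% of the 14476 genes tested at both sites were. These comparisons share no mouse, but they share the contrast of line, strain and cell number.

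Other cells differed between the models as well. In IPL tumors the summed level of 5 leukocyte markers was 419 to 813 CPM in AB1 and 849.8 to 1338 CPM in AE17, without overlap, and in SC tumors it was 794 to 1346 and 569 to 1414 CPM. Summed T cell markers had medians of 59.1 (AB1) and 147 CPM (AE17) in IPL and 135 and 69.6 CPM in SC tumors, and skeletal muscle markers 2139 and 528 CPM in IPL and 310 and 594 CPM in SC tumors. With tissue marker scores (muscle, heart, fat and lung epithelium) as covariates 17 members were higher and 3 lower in AB1 IPL tumors (43.6% and 7.69%, against 16.3% and 17.8% of all genes), and 17 and 8 in SC tumors (43.6% and 20.5%, against 27.7% and 28.4%). Calls were then lost for Mcm3, Cdt1, Tyms, Ccne1, Ccne2, Mki67, E2f1 and E2f2 in IPL and for Mcm3, Mcm7, Tyms, Bub1, Cenpa, Foxm1 and E2f2 in SC tumors. The members' median was 0.41 in IPL tumors and 0.14 in SC tumors in that fit. The part of leukocytes was not tested.

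With the lane as a covariate in 1 fit of all mice, 8 members were higher (Cdc6, Gins2, Rrm1, Ccnd1, Cdk4, Ccna2, Aurkb and Ube2c) and 5 lower (Ccnd2, Ccnd3, Ccne1, Ccne2 and Cdkn1a) in AB1 IPL tumors. In SC tumors 11 were higher (these 8 with Cdt1, Pcna and Cdk1) and 3 lower (Ccnd2, Ccnd3 and Ccne1). In that fit 16.5% of all genes were higher and 15.5% lower in IPL tumors, so that the members' 20.5% and 12.8% lay near the share of all genes, and in SC tumors the members' 28.2% and 7.69% stood beside 15.4% and 18.2%. The members' median log2 fold change was 0.36 in IPL and 0.35 in SC tumors. All 28 and 31 members called without the lane had the same sign with it. Only 2 groups were split over lanes, so the lane terms rest on few mice. These were AB1 SC (2 mice in lane 3 and 6 in lane 2) and AE17 IPL (5 in lane 2 and 3 in lane 1).

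**Figure D1:**
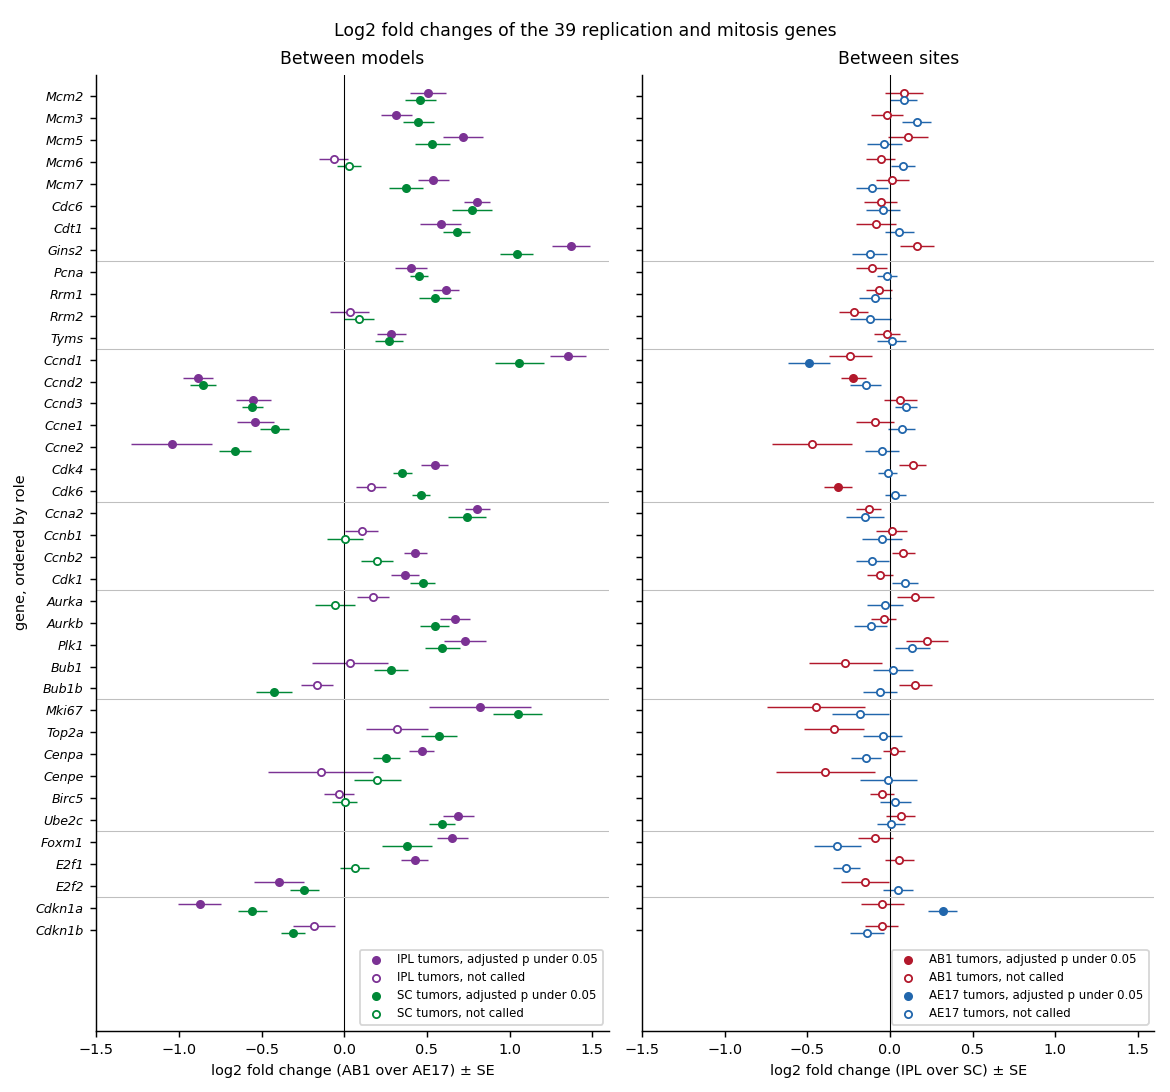
Log2 fold changes with standard errors of the 39 members (rows, by role) between models (left, AB1 over AE17, in IPL and SC tumors) and between sites (right, IPL over SC, in AB1 and AE17 tumors), with filled points for an adjusted p under 0.05. Of the 8 licensing genes 7 (all but Mcm6), and Ccnd1 and Ccna2, lie to the right and Ccnd2, Ccnd3, Ccne1, Ccne2 and Cdkn1a to the left on the model axis, while on the site axis 2 members are filled in each model. With the lane as a covariate, which is not shown, no Mcm gene was called between models.

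Of the 8 licensing and helicase genes, 7 were higher in AB1 tumors at both sites, or 6 in IPL tumors without the libraries set apart (Mcm3 lost). With the lane as a covariate the calls of Cdc6 and Gins2 were kept at both sites and that of Cdt1 in SC tumors alone. The calls of Mcm2, Mcm3, Mcm5 and Mcm7 were then lost at both sites. Gins2, a subunit of the GINS complex of the active helicase, had the largest rise among the members in IPL tumors with all libraries. Without the libraries set apart Ccnd1 rose more (log2 1.31, against 1.22 for Gins2). The lowest, median and highest levels of Gins2 were 43.8, 55.4 and 73.0 CPM in AB1 IPL and 16.6, 22.5 and 26.6 CPM in AE17 IPL tumors, and 41.2, 49.5 and 56.4 CPM in AB1 SC and 16.6, 24.3 and 30.6 CPM in AE17 SC tumors. Every AB1 tumor was above every AE17 tumor at its site. The fold change was 2.59 (log2 1.37 ± 0.11 SE, adjusted p = 1.32e-08) in IPL and 2.06 (1.04 ± 0.10, adjusted p = 4.95e-08) in SC tumors.

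Cdc6, which loads the helicase, was between 44.1 and 58.6 CPM in AB1 IPL and between 26.2 and 35.3 CPM in AE17 IPL tumors, with no overlap. In SC tumors it ran from 38.9 to 64.6 CPM in AB1 and from 20.4 to 39.8 CPM in AE17, with a small overlap. Its log2 fold change was 0.80 ± 0.08 (adjusted p = 9e-08) in IPL and 0.77 ± 0.12 (adjusted p = 2.39e-05) in SC tumors. Its partner Cdt1 was higher by 0.58 and 0.68 on the log2 scale, with medians of 89 and 94.5 CPM in AB1 IPL and SC tumors and 60.3 and 56.4 CPM in AE17 IPL and SC tumors.

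The helicase subunits did not all move alike. Among the helicase subunits Mcm5 was higher by 0.72 (IPL) and 0.53 (SC), Mcm7 by 0.54 and 0.37, Mcm2 by 0.51 and 0.46 and Mcm3 by 0.31 and 0.45. Without the libraries set apart the IPL difference of Mcm3 was 0.15 (adjusted p = 0.113) and that of Mcm2 0.33 (adjusted p = 0.00263). With the lane as a covariate no Mcm gene was called at either site. Mcm5 was at 212 to 374 CPM in AB1 IPL, 191 to 277 in AB1 SC, 141 to 204 in AE17 IPL and 127 to 233 in AE17 SC tumors, so that its groups were apart in IPL tumors and overlapped in SC tumors. Medians were 162 and 162 CPM in AB1 IPL and SC tumors and 122 and 113 CPM in AE17 IPL and SC tumors for Mcm2. They were 206 and 218 CPM in AB1 IPL and SC tumors and 176 and 151 CPM in AE17 IPL and SC tumors for Mcm3. For Mcm7 they were 224 and 233 CPM in AB1 IPL and SC tumors and 163 and 173 CPM in AE17 IPL and SC tumors, and its IPL groups did not overlap. Mcm6 stood apart from them. Its median was 245 CPM in AB1 IPL and 280 CPM in AE17 IPL tumors, and 274 and 254 CPM in SC tumors, with log2 fold changes of -0.06 ± 0.09 (adjusted p = 0.536) and 0.03 ± 0.07 (adjusted p = 0.76).

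The promoters of these genes are shown because most windows of licensing genes held an E2F site. A promoter window of 250 bases before to 50 bases after the start was found in RefSeq (GRCm38.p6) for 32 of the 39 members, in 36 windows. An E2F site (TTTCCCGC, TTTCGCGC, TTTGCCGC or TTTGGCGC on either strand) was in 8 of the 36 windows (22.2%) and in 2.27% of the 32851 windows of all genes. Of the 8 windows of licensing genes 6 held one. The 250 bases before the start are given 5' to 3' for Cdc6 (chr11:98907901-98908150, plus strand) and Mcm5 (chr8:75109259-75109508, plus strand), which were higher in AB1 tumors, and for Mcm6 (chr1:128359706-128359955, minus strand), which did not pass the test at either site, with E2F sites in capitals. In Mcm5 and Mcm6 matches on opposite strands overlap and print as 1 run.
Cdc6: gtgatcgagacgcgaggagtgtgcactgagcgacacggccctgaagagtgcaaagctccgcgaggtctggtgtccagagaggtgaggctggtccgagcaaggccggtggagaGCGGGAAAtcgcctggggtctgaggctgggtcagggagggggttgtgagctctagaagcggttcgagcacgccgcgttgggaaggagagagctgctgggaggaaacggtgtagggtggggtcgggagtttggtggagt
Mcm5: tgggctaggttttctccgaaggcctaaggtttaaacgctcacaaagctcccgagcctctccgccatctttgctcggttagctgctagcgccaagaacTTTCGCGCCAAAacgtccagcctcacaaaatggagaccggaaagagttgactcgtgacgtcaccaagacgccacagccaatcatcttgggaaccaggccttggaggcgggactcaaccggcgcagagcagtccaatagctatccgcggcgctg
Mcm6: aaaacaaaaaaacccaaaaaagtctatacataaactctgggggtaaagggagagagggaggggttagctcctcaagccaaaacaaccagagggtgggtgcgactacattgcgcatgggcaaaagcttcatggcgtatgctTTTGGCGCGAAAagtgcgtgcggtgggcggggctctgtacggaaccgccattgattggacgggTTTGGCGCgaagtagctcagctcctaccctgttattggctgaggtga

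The Cdc6 site starts 138 bases before the start of the gene. The Mcm5 matches start 153 and 149 bases before it, and those of Mcm6 start 110, 106 and 47 bases before it. Mcm6 thus held more matches than the 2 genes that differed between models. A match in letters is a description of the window and not a measured binding site.

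Of the 4 genes of the fork and nucleotide supply, 3 were higher in AB1 tumors at both sites, or 2 in IPL tumors without the libraries set apart (Tyms lost). With the lane as a covariate the call of Rrm1 was kept at both sites, that of Pcna in SC tumors alone and that of Tyms at neither. Pcna, the sliding clamp of the DNA polymerases, was 286, 325 and 467 CPM (lowest, median, highest) in AB1 IPL and 219, 264 and 307 CPM in AE17 IPL tumors, and the groups overlapped. In SC tumors it was 329, 368 and 401 CPM in AB1 and 232, 270 and 296 CPM in AE17, and the groups did not overlap. The log2 fold changes were 0.40 ± 0.10 (adjusted p = 0.00163) and 0.45 ± 0.05 (adjusted p = 7.45e-07). Rrm1 and Rrm2 encode the large and small subunits of ribonucleotide reductase, which makes deoxynucleotides. Rrm1 was higher by 0.62 (IPL) and 0.55 (SC) on the log2 scale, whereas Rrm2 had log2 fold changes of 0.03 ± 0.12 and 0.09 ± 0.09 and did not pass the test. Tyms, which makes thymidylate, was higher by 0.28 and 0.27, and its IPL difference was 0.19 (adjusted p = 0.0709) without those libraries.

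Rrm1 was at 251 to 345 CPM in AB1 IPL, 246 to 334 in AB1 SC, 156 to 225 in AE17 IPL and 139.7 to 261 in AE17 SC tumors, with no overlap of the models in IPL tumors. Rrm2 was at 132 to 188 CPM in AB1 IPL, 149 to 216 in AB1 SC, 122 to 215 in AE17 IPL and 127 to 211 in AE17 SC tumors, and its models overlapped at both sites. Tyms was at 53.3 to 73.4 CPM in AB1 IPL, 56.6 to 70.3 in AB1 SC, 43.5 to 61.6 in AE17 IPL and 41.1 to 67.6 in AE17 SC tumors.

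The G1 and G1/S cyclins moved in both directions. Ccnd1 was higher in AB1 tumors, and Ccnd2, Ccnd3, Ccne1 and Ccne2 were lower, at both sites. Ccnd1 levels were 507, 639 and 813 CPM (lowest, median, highest) in AB1 IPL and 239, 258 and 302 CPM in AE17 IPL tumors, and 558, 780.2 and 1001 CPM in AB1 SC and 243, 365 and 511 CPM in AE17 SC tumors. No AE17 tumor reached the lowest AB1 tumor of its site. The fold change was 2.55 (log2 1.35 ± 0.11, adjusted p = 9.54e-09) in IPL and 2.08 (1.06 ± 0.15, adjusted p = 8.2e-06) in SC tumors.

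Ccnd2 had the opposite order, at 89.5, 101.4 and 124 CPM in AB1 IPL and 167, 200.5 and 232 CPM in AE17 IPL tumors, and at 114, 121 and 131 CPM in AB1 SC and 172, 214 and 282 CPM in AE17 SC tumors. Every AB1 tumor was below every AE17 tumor at its site. Its log2 fold change was -0.89 ± 0.09 (adjusted p = 1.79e-07) in IPL and -0.85 ± 0.08 (adjusted p = 3.98e-08) in SC tumors. Ccnd3 was lower in AB1 by 1.46-fold (log2 -0.55 ± 0.11, adjusted p = 0.000225) in IPL and by 1.47-fold (-0.56 ± 0.06, adjusted p = 5.56e-07) in SC tumors. Its AB1 levels ran from 82.1 to 152 CPM in IPL and from 95.5 to 112.4 CPM in SC tumors, and its AE17 levels from 149 to 181 CPM and from 129.8 to 190.0 CPM, so that only the IPL groups overlapped.

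The D cyclins were also set against each other per exon length. Ccnd1 made up a median of 84.98% of the summed RPKM (CPM divided by exon length in kilobases) of the 3 D cyclins in AB1 IPL tumors (range 80.1% to 90.0%) and 86.7% in AB1 SC tumors (83.1% to 89.7%). In AE17 tumors it made up 58.3% in IPL (55.6% to 62.9%) and 65.2% in SC tumors (56.9% to 70.8%). Ccnd2 took 6.71% and 6.92% in AB1 and 22.5% and 19.5% in AE17 tumors. The lowest Ccnd1 share of any AB1 tumor was thus above the highest of any AE17 tumor. The shares depend on the exon lengths used. Of the counts, Ccnd1 made up medians of 74.65% and 77.15% in AB1 IPL and SC and 41.96% and 49.1% in AE17 IPL and SC tumors. Ccnd2 then took 11.9% and 12.3% in AB1 IPL and SC and 32.19% and 29.78% in AE17 IPL and SC tumors. The summed RPKM had medians of 160.0 and 191 in AB1 IPL and SC tumors and of 93.7 and 119 in AE17 tumors.

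**Figure D2:**
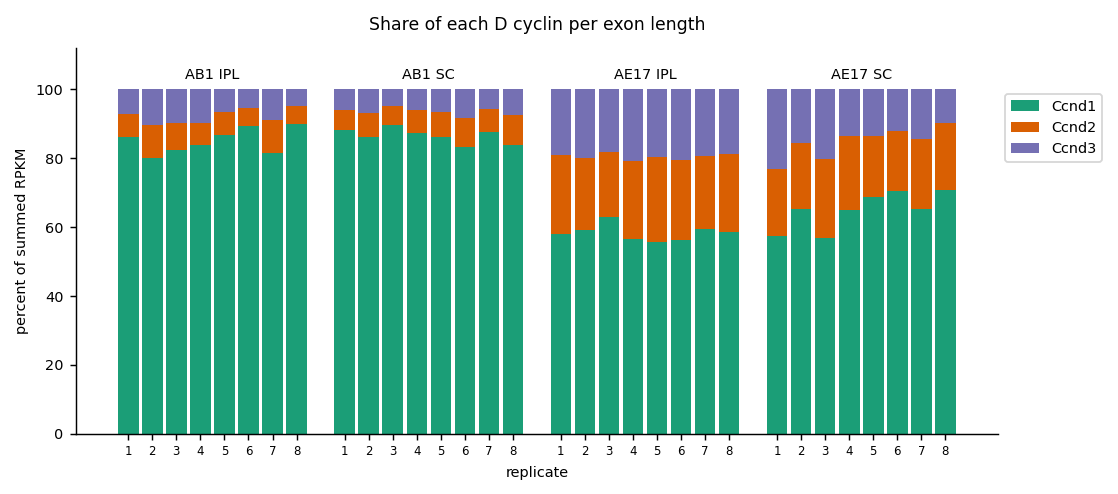
Share of Ccnd1, Ccnd2 and Ccnd3 in their summed RPKM (y axis, percent, stacked to 100) in each of the 32 tumors (x axis, replicate within group). Ccnd1 takes 80.1% or more in every AB1 tumor and 70.8% or less in every AE17 tumor.

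The E cyclins, which act with Cdk2 at the start of S phase, were both lower in AB1 tumors. Ccne1 was 18.3, 24.2 and 28.8 CPM in AB1 IPL and 29.1, 33.97 and 45.2 CPM in AE17 IPL tumors, a difference of -0.54 ± 0.11 on the log2 scale (adjusted p = 0.000511) with no overlap. In SC tumors it was 19.9, 24.6 and 31.3 CPM in AB1 and 27.1, 33.6 and 37.5 CPM in AE17 (-0.42 ± 0.09, adjusted p = 0.000475), with overlap. Ccne2 fell to 5.42 and 13.1 CPM in AB1 IPL replicates 4 and 2 and was 17.96 to 30.6 CPM in the other 6, against 33.7 to 53.1 CPM in AE17 IPL tumors. Its log2 fold change was -1.05 ± 0.24 (adjusted p = 0.0013) in IPL tumors and -0.80 without the libraries set apart for long transcripts of low GC content. In SC tumors it was -0.66 ± 0.10 (adjusted p = 1.47e-05), and -0.80 (adjusted p = 0.0885) with the lane as a covariate. With tissue marker scores neither gene was called in IPL tumors (Ccne1 -0.38, adjusted p = 0.116, and Ccne2 -0.54, adjusted p = 0.338).

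Cdk4 and Cdk6 are the kinase partners of the D cyclins. Cdk4 was higher in AB1, with a median of 470.1 against 333 CPM in IPL (log2 0.55 ± 0.08, adjusted p = 2.41e-05) and 443 against 333 CPM in SC tumors (0.35 ± 0.06, adjusted p = 3.49e-05). Cdk6 was 179, 195 and 207 CPM in AB1 SC and 117, 144 and 156 CPM in AE17 SC tumors, with no overlap (0.46 ± 0.05, adjusted p = 9.35e-07). In IPL tumors it was 119, 167 and 183 CPM in AB1 and 125, 144 and 162 CPM in AE17, which did not pass the test (0.16 ± 0.09, adjusted p = 0.144). The 2 lowest AB1 IPL values, 119.4 and 119.6 CPM, were replicates 2 and 4. Without the libraries set apart the IPL difference of Cdk6 was 0.24 (adjusted p = 0.0044), and with an offset for GC content and transcript length it was 0.65 (adjusted p = 8.8e-06). The SC call of Cdk6 was lost with the lane as a covariate.

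**Figure D3:**
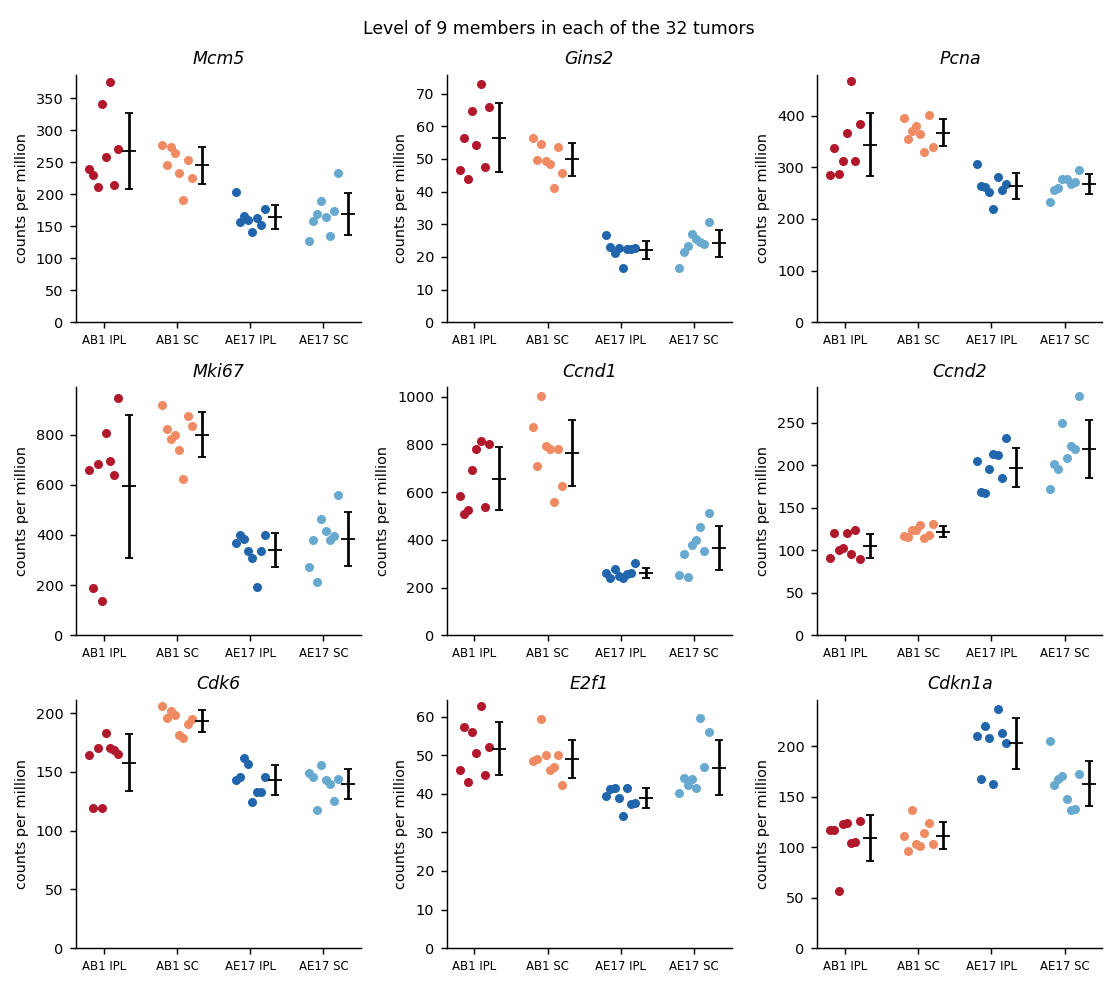
CPM (y axis, from 0) of 9 members in each tumor of the 4 groups (points), with the mean and SD (black). Gins2 and Ccnd1 separate the models upward and Ccnd2 downward at both sites, and Mki67 has 2 AB1 IPL tumors at 189 and 137 CPM while the other 6 reach 637 CPM or more.

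Of the S, G2 and M phase cyclins, Ccna2 was called at both sites, Ccnb2 at 1 and Ccnb1 at neither. Ccna2, the cyclin of S and G2 phase, was 179, 206 and 248 CPM in AB1 IPL and 100.8, 118 and 145 CPM in AE17 IPL tumors, with no overlap (log2 0.81 ± 0.08, adjusted p = 8.05e-08). In SC tumors it was 185, 227 and 252 CPM in AB1 and 93.3, 126 and 191 CPM in AE17 (0.74 ± 0.11, adjusted p = 2.09e-05), with 1 AE17 tumor (replicate 8) inside the AB1 range. Cdk1, the kinase that drives entry into mitosis, was higher by 0.37 and 0.47. Its activator Ccnb1 had log2 fold changes of 0.10 ± 0.10 and 0.00 ± 0.11 and passed at neither site, while Ccnb2 was higher in IPL tumors alone (0.43 ± 0.07, adjusted p = 3.69e-05) and 0.20 ± 0.10 in SC tumors (adjusted p = 0.0851). With the lane as a covariate the IPL calls of Cdk1 and Ccnb2 were lost. Whether the Ccnb2 difference itself differed between sites was tested by the interaction of model and site (adjusted p = 0.252).

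Cdk1 was at 151 to 205 CPM in AB1 IPL, 162 to 205 in AB1 SC, 110.2 to 167 in AE17 IPL and 107 to 151 in AE17 SC tumors, with no overlap of the models in SC tumors. Ccnb1 was at 104 to 158 CPM in AB1 IPL, 101.2 to 141 in AB1 SC, 90.5 to 152 in AE17 IPL and 83.3 to 174 in AE17 SC tumors, and the models overlapped at both sites. Ccnb2 was at 78.5 to 99 CPM in AB1 IPL, 71.1 to 97.5 in AB1 SC, 56.6 to 80.7 in AE17 IPL and 53.4 to 97.1 in AE17 SC tumors.

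The Cdk1 promoter is shown because it carries all 3 elements that are known for cell cycle genes (GRCm38.p6, chr10:69352913-69353162, minus strand). Capitals mark 1 E2F site, 2 CHR elements (TTTGAA) and 3 CCAAT boxes (CCAAT), on either strand.
Cdk1: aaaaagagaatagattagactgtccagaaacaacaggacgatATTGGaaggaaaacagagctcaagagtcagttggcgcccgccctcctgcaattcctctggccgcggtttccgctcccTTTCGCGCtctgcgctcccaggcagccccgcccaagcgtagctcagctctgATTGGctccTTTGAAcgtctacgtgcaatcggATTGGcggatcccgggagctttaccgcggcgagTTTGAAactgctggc

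The CHR elements start 71 and 15 bases before the start, and the CCAAT boxes 208, 80 and 48 bases before it. A CHR element was in 11 of the 36 member windows (30.6%) and in 17.9% of all windows, and a CCAAT box in 25 (69.4%) and in 37.4%. A CHR element was in 2 of 3 windows of the S, G2 and M cyclins and kinase, in 3 of 4 of the mitotic and checkpoint kinases, in 4 of 6 of the segregation genes and in 1 of 8 of the licensing genes. A TATA box (TATAAA) was in 1 of 36 member windows, that of Cdk6, and in 13.6% of all windows.

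Among the mitotic and checkpoint kinases, Plk1 was higher in AB1 by 0.73 ± 0.13 (IPL, adjusted p = 9.8e-05) and 0.59 ± 0.11 (SC, adjusted p = 9.86e-05), and Aurkb, of the chromosomal passenger complex, by 0.67 and 0.55. With the lane as a covariate the calls of Plk1 were lost at both sites and those of Aurkb kept. Aurka, the centrosome and spindle pole kinase, had log2 fold changes of 0.17 ± 0.10 and -0.06 ± 0.12 and passed at neither site. The spindle checkpoint kinases Bub1 and Bub1b parted in SC tumors, where Bub1 was higher (0.28 ± 0.10, adjusted p = 0.0238) and Bub1b lower in AB1 (-0.42 ± 0.11, adjusted p = 0.00266). The SC call of Bub1 was lost with all 32 mice in 1 fit, with the lane, with tissue marker scores and without AB1 SC replicate 7 or AE17 SC replicate 1. That of Bub1b was lost with the lane. In IPL tumors neither passed, and without the libraries set apart Bub1 was higher there (0.26, adjusted p = 0.0436) and 0.21 (adjusted p = 0.0408) in SC tumors. The test of model by site gave an adjusted p of 0.516 (Bub1) and 0.298 (Bub1b).

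Plk1 was at 96.8 to 167 CPM in AB1 IPL, 81.2 to 140.3 in AB1 SC, 63.02 to 112.4 in AE17 IPL and 61.2 to 91.2 in AE17 SC tumors. Aurkb was at 78.5 to 104 CPM in AB1 IPL, 77.8 to 107 in AB1 SC, 44.5 to 74.6 in AE17 IPL and 50.4 to 81.1 in AE17 SC tumors, and its models were apart in IPL tumors. Aurka was at 60.4 to 85.6 CPM in AB1 IPL, 45 to 75.2 in AB1 SC, 50.9 to 83.6 in AE17 IPL and 48.6 to 87.2 in AE17 SC tumors, with overlap at both sites. Bub1 had medians of 59 and 63.3 CPM in AB1 IPL and SC tumors and 53.7 and 52.9 CPM in AE17 IPL and SC tumors, and its lowest AB1 IPL value was 15.8 CPM, in replicate 4. Bub1b had medians of 87.2 and 83.4 CPM in AB1 IPL and SC tumors and 107 and 107 CPM in AE17 IPL and SC tumors.

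Mki67, the proliferation marker Ki-67 that coats mitotic chromosomes, was 625, 812 and 919 CPM in AB1 SC and 214, 388 and 561 CPM in AE17 SC tumors, with no overlap. Its log2 fold change there was 1.05 ± 0.15 (adjusted p = 9.48e-06). In AB1 IPL tumors it was 189 and 137 CPM in replicates 2 and 4 and 637 to 948 CPM in the other 6, against 194 to 398 CPM in AE17 IPL tumors. The log2 fold change was 0.82 ± 0.31 (adjusted p = 0.0308) with all 16 tumors and 1.06 (adjusted p = 9.38e-07) without the libraries set apart. The IPL call of Mki67 was lost without a filter on low counts (0.83, adjusted p = 0.0637), with the replicate number as a block (0.65, adjusted p = 0.152), with the lane (0.56, adjusted p = 0.45) and with tissue marker scores (1.04, adjusted p = 0.202). It was also lost without any one of AB1 IPL replicates 5, 6 and 8 and AE17 IPL replicate 6 (0.69 to 0.78, adjusted p = 0.0521 to 0.0704). The SC call was lost with the lane (0.80, adjusted p = 0.197). Top2a, the topoisomerase that untangles chromosomes, had log2 fold changes of 0.32 ± 0.19 (adjusted p = 0.154) in IPL and 0.57 ± 0.11 (adjusted p = 0.000158) in SC tumors, and without the libraries set apart 0.47 (adjusted p = 0.000119) in IPL tumors. Its SC call was lost with the lane. Its levels ran from 202 to 685 CPM in AB1 IPL, 543 to 720.3 CPM in AB1 SC, 331 to 517 CPM in AE17 IPL and 316 to 581 CPM in AE17 SC tumors.

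Of the other segregation genes, Ube2c, which ends mitosis with the anaphase promoting complex, was higher by 0.69 and 0.59, and the centromere histone Cenpa by 0.47 and 0.26. With the lane as a covariate the calls of Cenpa were lost at both sites. Birc5 (survivin) had log2 fold changes of -0.03 ± 0.09 and 0.00 ± 0.08, and the kinetochore motor Cenpe -0.14 ± 0.32 and 0.20 ± 0.14, and neither passed at either site. Without the libraries set apart Cenpe was 0.13 (adjusted p = 0.34) and 0.10 (adjusted p = 0.404). Ube2c was at 104 to 148 CPM in AB1 IPL, 93.2 to 130.1 in AB1 SC, 61 to 97.8 in AE17 IPL and 64.7 to 93.2 in AE17 SC tumors, and the models were apart at both sites. Cenpa was at 117 to 151 CPM in AB1 IPL, 108 to 136 in AB1 SC, 80.5 to 115 in AE17 IPL and 81.9 to 134 in AE17 SC tumors, apart in IPL tumors. Birc5 was at 92.4 to 122 CPM in AB1 IPL, 90.4 to 121 in AB1 SC, 83.7 to 147 in AE17 IPL and 88 to 127 in AE17 SC tumors, and the models overlapped. Cenpe had medians of 97.9 and 118 CPM in AB1 IPL and SC tumors and 100.0 and 98.9 CPM in AE17 IPL and SC tumors, and its lowest AB1 IPL value was 20.4 CPM, in replicate 4. Mcm6, Rrm2, Ccnb1, Aurka, Cenpe and Birc5 were the 6 members that passed at neither site.

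Of the 3 transcription factors, Foxm1 was higher in AB1 by 0.65 ± 0.09 (IPL) and 0.38 ± 0.15 (SC, adjusted p = 0.0359). The SC call of Foxm1 was lost without a filter on low counts (0.39, adjusted p = 0.07), with the replicate number as a block (0.42, adjusted p = 0.0632), with the lane (0.35, adjusted p = 0.273) and with tissue marker scores (0.10, adjusted p = 0.58). It was also lost without any one of AB1 SC replicates 1 to 4 and 7 and AE17 SC replicates 1 to 3, 5 and 7 (0.30 to 0.38, adjusted p = 0.0502 to 0.0763), and was 0.51 (adjusted p = 0.0014) without AE17 SC replicate 8. The IPL call was lost with the lane (0.54, adjusted p = 0.128). E2f1 was higher in IPL tumors alone (0.43 ± 0.08, adjusted p = 0.000198), with 43.1 to 62.8 CPM in AB1 and 34.3 to 41.5 CPM in AE17 tumors and no overlap, and was 0.06 ± 0.09 in SC tumors. The IPL call of E2f1 was lost with the lane and with tissue marker scores. E2f2 was lower in AB1 by 0.40 and 0.24 on the log2 scale (adjusted p = 0.0311 and 0.023). With an offset for GC content and transcript length the SC difference of E2f2 was -0.02 (adjusted p = 0.841). Both its calls were lost with the lane and with tissue marker scores, the SC call also with all 32 mice in 1 fit and with the replicate block, and the IPL call without any one of AB1 IPL replicates 1, 7 and 8 and AE17 IPL replicate 1. Foxm1 was at 119 to 184 CPM in AB1 IPL, 122 to 185 in AB1 SC, 84.2 to 104 in AE17 IPL and 77.1 to 193 in AE17 SC tumors, apart in IPL tumors. E2f2 was at 11.4 to 29.4 CPM in AB1 IPL, 18.9 to 22.9 in AB1 SC, 22.9 to 29.7 in AE17 IPL and 19 to 30.1 in AE17 SC tumors, and the models overlapped at both sites.

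Both CDK inhibitors were lower in AB1 SC tumors and Cdkn1a also in AB1 IPL tumors. With the lane as a covariate both SC calls were lost and the IPL call of Cdkn1a was kept. Cdkn1a was 57.0, 117 and 126 CPM in AB1 IPL and 162, 209 and 237 CPM in AE17 IPL tumors, with no overlap, a difference of -0.88 ± 0.13 (adjusted p = 1.89e-05). In SC tumors it was 96.3, 107 and 137 CPM in AB1 and 137, 165 and 206 CPM in AE17 (-0.56 ± 0.09, adjusted p = 2.37e-05), where the highest AB1 tumor (136.9 CPM) passed the lowest AE17 tumor (136.7 CPM). Cdkn1b had log2 fold changes of -0.18 ± 0.13 (adjusted p = 0.221) in IPL and -0.31 ± 0.07 (adjusted p = 0.00111) in SC tumors. With an offset for GC content and transcript length its IPL value was 0.02. Its levels were 54.2 to 94.8 CPM in AB1 IPL, 71.8 to 86.5 in AB1 SC, 73.6 to 123 in AE17 IPL and 79.1 to 119 in AE17 SC tumors, and the models overlapped at both sites.

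The first of 2 RefSeq promoter windows of Cdkn1a is shown because it held 2 matches of the p53 half-site, the only member window with more than 1 (GRCm38.p6, chr17:29090729-29090978, plus strand, matches in capitals). They start 73 and 51 bases before the start, and such a match was in 4 of 36 member windows (11.1%) and in 8.36% of all windows.
Cdkn1a: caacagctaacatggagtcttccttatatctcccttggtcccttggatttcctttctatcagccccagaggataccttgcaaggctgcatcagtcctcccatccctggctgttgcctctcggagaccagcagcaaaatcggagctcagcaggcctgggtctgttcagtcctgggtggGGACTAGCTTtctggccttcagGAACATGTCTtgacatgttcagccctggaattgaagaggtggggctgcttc

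The second question is how the sites differ within each model. Few members were called in either model. In AB1 tumors 0 members were higher and 2 lower in IPL than in SC tumors (edgeR, 3 members at an unadjusted p under 0.05, and DESeq2 also found 0 higher and 2 lower), where 12.3% and 10.7% of 14645 genes tested were higher and lower. In AE17 tumors 1 was higher and 1 lower (2.56% each), near the 2.6% and 3.13% of all 14668 genes tested. The median log2 fold change of the members was -0.05 in AB1 and -0.03 in AE17 tumors, against 0.00 for all genes tested in both.

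In AB1 tumors Cdk6 was lower in IPL tumors, at 119 to 183 CPM against 179 to 207 CPM in SC tumors (log2 -0.31 ± 0.09, adjusted p = 0.0139), and only the highest IPL tumor was inside the SC range. Without the libraries set apart the difference was -0.18 (adjusted p = 0.00724). Ccnd2 was lower by 0.22 ± 0.07 (adjusted p = 0.0403) and by 0.21 (adjusted p = 0.0628) without those libraries. With an offset for GC content and transcript length, and with covariates for heart, fat, lung epithelium and skeletal muscle markers, neither was called. The summed level of 8 skeletal muscle markers was 110.0 to 4517 CPM in AB1 IPL and 54.7 to 507 CPM in AB1 SC tumors, and muscle is among the covariates of that fit. That of 5 leukocyte markers was 419 to 813 and 794 to 1346 CPM, and its part in these results was not tested.

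In AE17 tumors Ccnd1 was lower in IPL tumors, at 239 to 302 CPM against 243 to 511 CPM in SC tumors (log2 -0.49 ± 0.13, adjusted p = 0.0349). All 8 IPL tumors were below the SC median of 365 CPM. Cdkn1a was higher, at 162 to 237 CPM against 137 to 206 CPM (0.32 ± 0.09, adjusted p = 0.0455), and 0.28 (adjusted p = 0.075) without the libraries set apart. Neither was called without a filter on low counts or with the replicate block. Nor was either called with the lane as a covariate, within lane 1 alone or with the tissue marker covariates. In those fits at most 0.421% of all genes tested passed in either direction, and lane 1 held 3 IPL and 8 SC mice. Cdk6 and Ccnd2 of AB1 tumors were not called with the lane as a covariate or within lane 3. With the lane 1.7% of all genes were higher and 1.82% lower there. Within lane 3 (8 IPL and 2 SC mice) these shares were 0.0625% and 0.994%.

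Of the other members fixed for reporting, none passed the test between sites. In AB1 tumors the log2 fold changes were -0.45 ± 0.29 for Mki67 (adjusted p = 0.296), -0.34 ± 0.18 for Top2a (adjusted p = 0.196), -0.11 ± 0.09 for Pcna, -0.24 ± 0.13 for Ccnd1, 0.06 ± 0.10 for Ccnd3, -0.09 ± 0.12 for Ccne1, 0.14 ± 0.08 for Cdk4 and -0.05 for both CDK inhibitors. Without the libraries set apart those of Mki67 and Top2a were -0.10 and -0.11, and those of Pcna and Ccne1 -0.17 and -0.21. In AE17 tumors they were -0.18 ± 0.17 for Mki67, -0.04 ± 0.12 for Top2a, -0.02 ± 0.06 for Pcna, -0.15 ± 0.09 for Ccnd2, 0.10 ± 0.07 for Ccnd3, 0.07 ± 0.08 for Ccne1, -0.01 ± 0.06 for Cdk4, 0.03 ± 0.07 for Cdk6 and -0.14 ± 0.11 for Cdkn1b. The 8 licensing genes lay between -0.08 and 0.16 in AB1 and between -0.12 and 0.16 in AE17 tumors. Without the libraries set apart these ranges were -0.22 to 0.05 in AB1 and -0.14 to 0.19 in AE17 tumors.

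The interaction of model and site asks whether the site differences differ between the models. It was called for 2 of 39 members, where 20.5% of 15681 genes tested were called. The site difference of Cdk6 was more negative in AB1 than in AE17 tumors by 0.33 ± 0.11 on the log2 scale (adjusted p = 0.0309), and by 0.24 (adjusted p = 0.0283) without the libraries set apart. E2f1 had log2 fold changes between sites of 0.06 ± 0.09 in AB1 and -0.26 ± 0.08 in AE17 tumors (adjusted p = 0.658 and 0.0657), with a difference of 0.34 ± 0.12 (adjusted p = 0.0389). That difference was 0.21 (adjusted p = 0.232) without the libraries set apart. With an offset for GC content and transcript length neither interaction was called (adjusted p = 0.297 for Cdk6 and 0.197 for E2f1).

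In 3 of the groups single mice held the highest or lowest level of most members. In AE17 SC tumors replicate 8 had the highest level of 31 of the 39 members and replicate 1 the lowest of 20. In AE17 IPL tumors replicate 1 was highest for 30 and replicate 5 lowest for 29, and in AB1 SC tumors replicate 3 was highest for 19 and replicate 6 lowest for 29. Measures of other cells moved as well. Leukocyte markers summed to 569 CPM in AE17 SC replicate 8, the lowest of its group, and to 1382 CPM in replicate 1, where the group median was 1099 CPM. AE17 IPL replicate 5 had the highest summed adipocyte (315.9 CPM, median 1.05), cardiac muscle (223 CPM, median 22.9), skeletal muscle (809 CPM, median 528), erythroid (704 CPM, median 205), T cell (199 CPM, median 147) and B cell markers (280.5 CPM, median 94.7). AE17 IPL replicate 1 had the lowest skeletal muscle (57.8 CPM), adipocyte (0.0593 CPM) and erythroid markers (72.5 CPM) and the highest mesothelial markers (228.1 CPM). In the AB1 SC group leukocyte markers were lowest in replicate 3 (794 CPM) and 1033 CPM in replicate 6. Their part in the levels was not tested. Cdkn1b had the opposite order in AE17 IPL tumors, where it was highest in replicate 5 (123 CPM) and lowest in replicate 1 (73.6 CPM), as had Ccnd3 in AE17 SC tumors, where it was highest in replicate 1 and lowest in replicate 8.

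**Figure D4:**
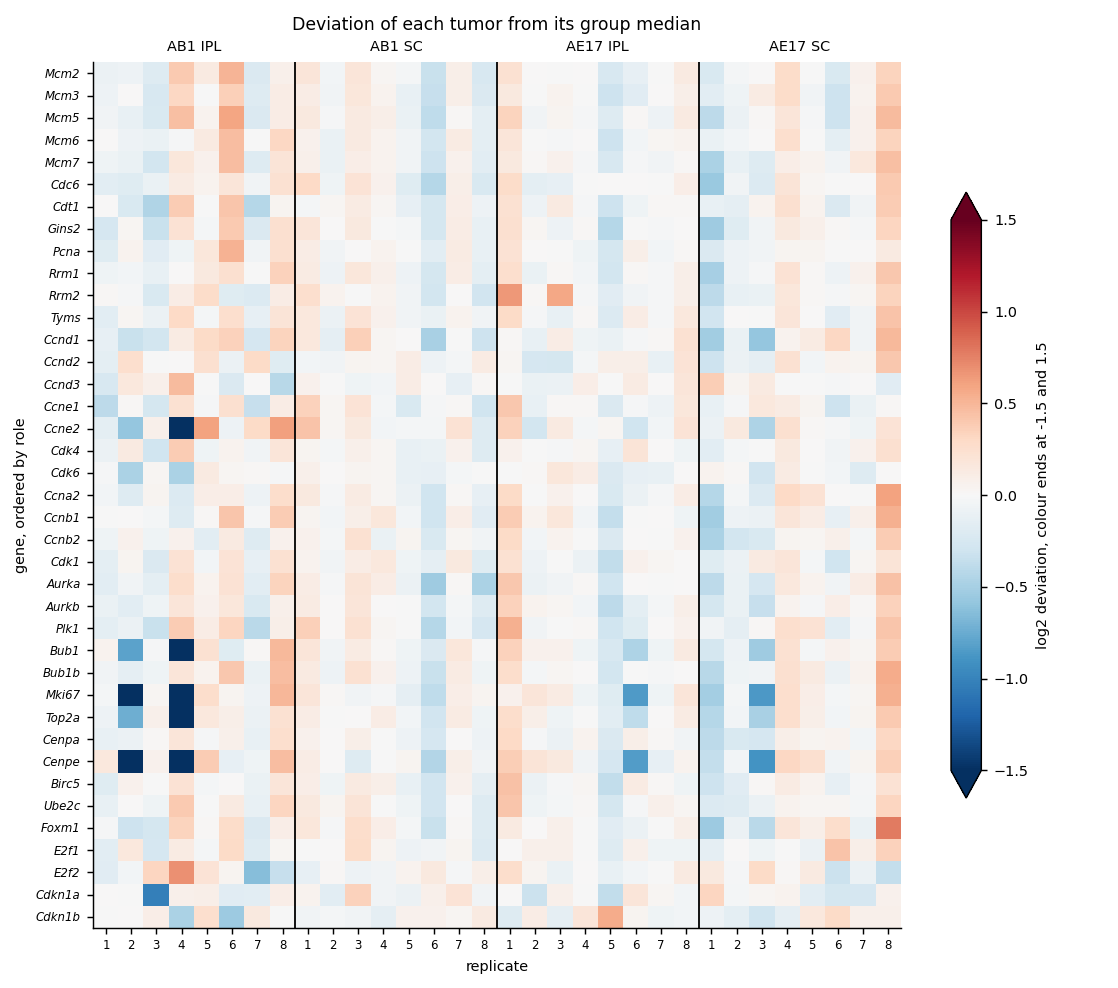
Log2 deviation of each tumor (x axis, replicates in 4 groups) from the median of its group for the 39 members (y axis, by role), red for higher and blue for lower. Columns share a colour in most rows, such as AE17 SC replicate 8 (highest in 31 members) and AE17 IPL replicate 5 (lowest in 29), and Mki67, Cenpe, Top2a, Bub1 and Ccne2 are dark blue in AB1 IPL replicate 4.

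In AB1 IPL tumors no replicate was highest for more than 13 members or lowest for more than 12. In replicate 4 the log2 deviations of Mki67, Cenpe, Top2a, Bub1 and Ccne2 lay between -2.29 and -1.53, while those of the other 34 members lay between -0.48 and 0.69 with a median of 0.19. In replicate 2 these 5 genes lay between -1.89 and -0.58 and the other 34 between -0.48 and 0.25. Their longest transcripts have 36.3% (Ccne2), 41.04% (Bub1), 42.95% (Cenpe), 43.4% (Top2a) and 46.6% GC (Mki67), where the median of the 39 members was 49.3%, and those of Mki67 and Cenpe are 10061 and 7910 bases long. Those of Top2a, Bub1 and Ccne2 have 5221, 3421 and 3006 bases. Of these genes Cenpe alone meets both limits of the class of long transcripts of low GC content. Rrm1, with 5475 bases and 43.3% GC, deviated by only 0.01 in AB1 IPL replicate 4 and -0.04 in AB1 IPL replicate 2. The same 5 genes were the 5 lowest in AE17 IPL replicate 6 (deviations of -0.85 to -0.30) and among the 6 lowest in AE17 SC replicate 3 (-0.89 to -0.46). The 5 genes were singled out after their values were seen.

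**Figure D5:**
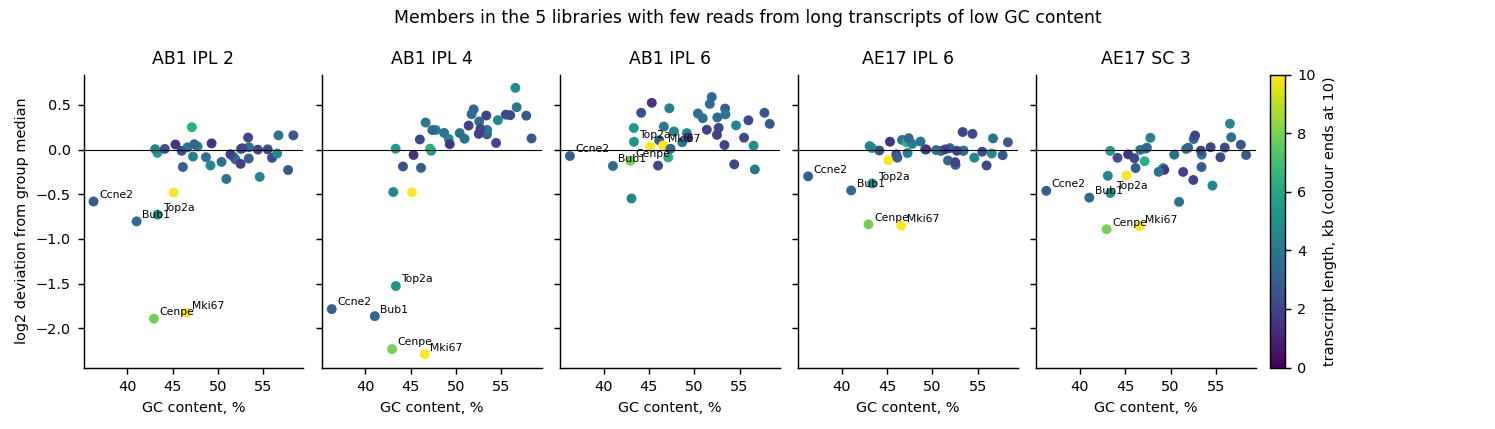
Log2 deviation from the group median (y axis) against the GC content of the longest transcript (x axis, percent) for the 39 members in the 5 libraries set apart, coloured by transcript length. In AB1 IPL replicate 4, Mki67, Cenpe, Top2a, Bub1 and Ccne2 lie between -2.29 and -1.53, and in AB1 IPL replicate 6 no member lies below -0.55.

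Per exon length, the order of the members was led by few genes. In AB1 IPL tumors the highest median RPKM were those of Cdk4 (145), Ccnd1 (136) and Pcna (135), in ranges that overlap, and in AB1 SC tumors Ccnd1 (166), Pcna (153) and Cdk4 (137). In AE17 tumors Pcna (109.8 in IPL and 112.3 in SC) and Cdk4 (102.6 in both) led, and Ccnd1 was the fifth in AE17 IPL tumors (54.7 RPKM, after Mcm6 at 59.9 and Cdkn1a) and the third in AE17 SC tumors (77.4 RPKM). In the same order Cdkn1a was the fourth of 39 in AE17 IPL tumors (58.9 RPKM) and the 16th in AB1 IPL tumors (32.9 RPKM). E2f2 was the lowest of the 39 in all 4 groups (3.70 to 5.06 RPKM). A rank by length depends on the annotation used, since transcripts with long ends count as long genes.

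Further genes of the same pathways were taken from lists by name. These lists, too, were chosen with earlier results known. Of 28 other replication genes tested, 19 were higher and 1 lower in AB1 IPL tumors and 21 higher and 0 lower in AB1 SC tumors, with medians of 0.43 and 0.40 on the log2 scale (67.9% and 75% higher, where 30.5% and 31.5% of all genes tested were). In IPL tumors the largest were Lig1, the DNA ligase of lagging strand synthesis (0.76), Pold1, the catalytic subunit of DNA polymerase delta (0.75), and Gins3 (0.70). In SC tumors they were Rfc3 of the clamp loader (0.87), Lig1 (0.82) and Pold1 (0.69). Of 33 other mitosis genes 13 were higher and 3 lower in IPL and 14 higher and 5 lower in SC tumors, with medians of 0.05 and 0.06. Their 39.4% and 42.4% higher lay not far from the 30.5% and 31.5% of all genes, and their 9.09% and 15.2% lower were below the 28.6% and 32.2%. Pttg1 (securin, 1.23 and 1.28) and the checkpoint gene Mad2l1 (0.91 and 0.98) led both. Of 15 RB, E2F and MYB family genes and partners, 10 were higher and 2 lower at each site (66.7% and 13.3%). Mybl2, the MYB of the mitotic gene complex, had medians of 144 and 156 CPM in AB1 and 41.02 and 42.9 CPM in AE17 tumors (log2 1.71 ± 0.12 and 1.71 ± 0.14). Rbl1 (p107) was higher by 1.11 and 1.53, and Myc was lower in AB1 by 1.69 and 1.36 on the log2 scale, with medians of 75.1 and 90.0 CPM against 230.0 and 227 CPM.

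Of the other CDK inhibitors, 0 were higher and 2 lower of 4 tested in AB1 IPL tumors, and 1 was higher and 1 lower of 2 tested in AB1 SC tumors, beside 30.5% and 28.6%, and 31.5% and 32.2%, of all genes. Cdkn2c (p18) was lower in AB1 at both sites, at medians of 51.5 and 49.9 CPM against 97.2 and 108 CPM (log2 -0.88 and -1.06). Cdkn2a (p16 and p19Arf), at most 1.37 CPM in any tumor, was called lower in AB1 IPL tumors (-1.44 ± 0.29). Its medians there were 0.26 CPM in AB1 and 0.86 CPM in AE17, near the floor of 3 counts, so no weight is put on that call. Between AB1 sites only 2 of the 4 passed the filter on low counts. Cdkn2d (p19) was higher in AB1 SC tumors (0.23 ± 0.05, adjusted p = 0.000418). Of 12 p53 target genes tested, 5 were higher and 5 lower in AB1 IPL and 5 higher and 3 lower in AB1 SC tumors. These shares (41.7% higher at both sites, 41.7% and 25% lower) lay near those of all genes tested (30.5% and 31.5% higher, 28.6% and 32.2% lower). Aen was higher by 1.36 and 1.49, and Trp53inp1 lower by 0.64 and 0.78. Between sites, 3 of the 12 (25%) were higher in AE17 IPL tumors (Gdf15 by 1.04, Sesn2 by 0.40 and Mdm2 by 0.22), where 2.6% of all genes were. In AB1 tumors 0 of the 12 passed, where 12.3% of all genes were higher and 10.7% lower. With the lane, within lane 1 and with tissue marker scores 0 of the 12 were called higher in AE17 IPL tumors, where 0 of all genes were higher with tissue scores and 10 of 15375 within lane 1. When each mouse was left out 1 to 4 of the 12 were higher. In AB1 tumors 1 of 28 other replication genes (Rfc3, -0.47 ± 0.09) and 1 of 15 RB, E2F and MYB genes (Rbl1, -0.52 ± 0.14) were lower in IPL tumors. These are 3.57% and 6.67%, where 10.7% of all genes tested were lower. In AE17 tumors 0 of 28 and 1 of 15 (Tfdp2, -0.49 ± 0.12) were lower, where 3.13% of all genes were. None of the 33 other mitosis genes passed between sites in either model. Of all genes 12.3% were higher and 10.7% lower in AB1, and 2.6% and 3.13% in AE17 tumors.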

How the data were processed

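RNA of whole tumors was sequenced from 32 mice. The authors checked reads with FastQC, mapped them to a genome named mm11 with HISAT2 2.0.4 (bcl2fastq 1.8.4 is also named in the processing notes) and deposited counts per gene, made with SummerizeOverlaps and not normalized. Whether strand was used is not given in the sources used here. Replicates were separate mice. Groups came from sample titles and lanes from column names. Members were matched by symbol. The members and lists were chosen with earlier results of these data known.

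Fits were made in R 4.3.3 with edgeR 4.0.16 (filterByExpr, TMM, robust quasi-likelihood F test, two-sided, Benjamini-Hochberg over all genes tested, adjusted p under 0.05), using the 16 mice of a comparison, or all 32 for the interaction. Standard errors come from the F statistic and include the spread between mice. The procedure was tested on simulated data. DESeq2 1.42.0 was an alternative. Named genes were all members with levels, 11 members fixed for fold changes, the members with the 5 largest called changes, and up to 3 called genes of each further list. Fold changes of the other members were added outside that rule. RPKM used merged exons of GENCODE M21 (GRCm38), which held 39495 of 39676 identifiers, and GC content its longest transcripts. Floors cover counting error only. Fits with the GC and length offset, without 5 libraries and within 1 lane were chosen after seeing the data. Plots used matplotlib 3.10.9.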

Additional observations from a re-analysis of the deposited data

Results flagged for a closer look

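In 8 of 156 combinations of a member and a group, or 5.13%, the highest or lowest of the 8 mice stood apart from the next by more than Dixon's 95% critical value for its share of the group's range. Chance gives about 1 in 20. In AE17 IPL tumors the highest level of Aurka was 83.64 CPM (next 63.8), of Plk1 112.4 CPM (next 81.4), of Ube2c 97.82 CPM (next 77.4) and of Cdkn1b 123.2 CPM (next 95.5), the first 3 in replicate 1 and Cdkn1b in replicate 5. The lowest Mki67 level in AE17 IPL tumors was 193.9 CPM (next 309), in replicate 6, one of the libraries with few reads from long transcripts of low GC content. The highest Ube2c level in AE17 SC tumors was 93.17 CPM (next 77.3), the highest E2f1 level in AB1 SC tumors 59.35 CPM (next 50.1), and the lowest Cdkn1a level in AB1 IPL tumors 57.0 CPM (next 104).

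The site difference (IPL over SC) differed between models by the interaction test for Cdk6, with -0.3274 on the log2 scale for AB1 less AE17 (adjusted p = 0.0309), and for E2f1, with 0.3383 (adjusted p = 0.0389). Without the libraries set apart E2f1 was 0.21 (adjusted p = 0.232). Neither was called without a filter, with the lane, with tissue scores or with the GC and length offset.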

How the results depend on the processing

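The counts between models stayed within 1.5 times of those reported except with lane and with tissue scores. The 22 higher and 6 lower members of IPL tumors and the 23 and 8 of SC tumors ranged over 21 to 24 and 5 to 6, and 21 to 24 and 8 to 8, when each mouse was left out. With the lane as a covariate in the fit of all mice they were 8 and 5 in IPL tumors (20.5% and 12.8%, where 16.5% and 15.5% of all genes were called) and 11 and 3 in SC tumors (28.2% and 7.69%, against 15.4% and 18.2%). With tissue scores the lower IPL members were 3 (Ccne1, Ccne2 and E2f2 lost), and the members' median in SC tumors was 0.14 in place of 0.35. The cause was not tested.

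The calls between sites changed with most settings. In AE17 tumors the fits with lane, with tissue scores and within lane 1 called at most 0.421% of all genes in either direction. Of the 2 members lower in AB1 IPL tumors, 1 was called without a filter, with at least 10 counts in every mouse, with all 32 mice in 1 fit, with the replicate block, with the GC and length offset (neither Cdk6 nor Ccnd2) and without the 5 libraries set apart, and 0 at an adjusted p under 0.01, with lane, with tissue scores and within lane 3. Leaving out a mouse gave 1 to 3 (0 to 0 higher), 3 without AB1 IPL replicate 5, and 1 without any one of AB1 IPL replicates 1, 3, 4, 6 and 8 and AB1 SC replicates 3 to 7. The 1 higher AE17 member was 0 under all of these settings (lane 1 in place of lane 3) but the count filter, where it was 1, and with DESeq2, also 1, and 0 to 1 when a mouse was left out (0 without AE17 IPL replicates 1, 3, 4, 6, 7 or 8 or AE17 SC replicates 2 or 4 to 8). The 1 lower AE17 member became 2 with DESeq2 and with all 32 mice, 0 at p under 0.01, without a filter, with the replicate block, lane, tissue scores and within lane 1, and 0 to 2 when a mouse was left out (2 without AE17 SC replicates 1 or 3, 0 without AE17 IPL replicates 1 to 4, 6 or 7 or AE17 SC replicates 2 or 5 to 8). The 2 interaction calls were 1 with 10 counts in every mouse, with the replicate block and without the libraries set apart, 0 at p under 0.01, without a filter, with lane, tissue scores and the GC and length offset, and 0 to 2 when a mouse was left out (0 without AE17 IPL replicate 4 or AE17 SC replicate 7, and 1 without AB1 IPL replicates 2, 4 or 6, AB1 SC replicates 1, 4 to 6 or 8, AE17 IPL replicates 3, 5, 7 or 8 or AE17 SC replicates 6 or 8). The cause was not tested.

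Among the members called in a comparison and the 11 fixed for fold changes, the signs that turned were of values that did not pass the test. With tissue scores these were 0.15 (Pcna), -0.0922 (Ccnd3), 0.0821 (Ccne1) and 0.0451 (Cdkn1a) between AB1 sites, 0.0394 for Pcna between AE17 sites and 0.0084 for Ccnd2 in the interaction. With lane they were 0.0698 (Cdkn1a) and 0.0130 (Cdkn1b) in AB1 and 0.0034 (Pcna), 0.0192 (Cdk4) and -0.0283 (Cdk6) in AE17. Within 1 lane they were -0.0186 (Ccnd3) and 0.0080 (Cdkn1a) in AB1 and 0.0009 (Pcna), 0.0172 (Cdk4) and -0.0313 (Cdk6) in AE17. With the offset they were 0.0156 (Pcna), -0.12 (Ccnd3) and 0.12 (Cdkn1b) in AB1, 0.0215 for Cdkn1b between models in IPL tumors and 0.0599 for Pcna in the interaction. Without the libraries set apart they were -0.0293 (Ccnd3) and 0.11 (Cdkn1b) in AB1 and 0.0425 for Mki67 in the interaction (over all 39 members and 5 comparisons 18 of 195 signs turned there, 0 of them of a called value), and without a filter 0.0011 for Ccnd3 there. With a mouse left out, the range was -0.10 to 0.0310 for Ccnd3 in the interaction, -0.0754 to 0.0493 for Cdkn1a and -0.10 to 0.0328 for Cdkn1b in AB1, and in AE17 -0.0484 to 0.0125 for Cdk4, -0.0054 to 0.0505 for Cdk6, -0.0525 to 0.0075 for Pcna and -0.11 to 0.0158 for Top2a.

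Replicate numbers did not pair the mice, which were different animals. Deviations of mice with the same number correlated on average by -0.14 (AB1 sites), 0.09 (AE17 sites), -0.05 (IPL) and -0.13 (SC), over 0.1 in 0, 5, 1 and 2 of 8 pairs. With the replicate block the model calls were 21 and 6 in IPL and 22 and 7 in SC tumors. All 156 group means moved by less than 1 SD without TMM.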
